A study of Callithrix jacchus with 5 samples.

Results

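ES line No40 is 1 of 3 embryonic stem (ES) cell lines of the common marmoset (Callithrix jacchus), and it is represented by 1 library of 5 in the series. It carries the highest P number in the sample titles, 63, against 17 for ES line DSY127 and 45 for ES line No20. The labels do not define P, which usually stands for passage, the transfer of a culture to a fresh dish. The library was compared with the libraries of DSY127 and No20 over the 16858 of 30811 genes in the count table that passed a low-count filter. A library of induced pluripotent stem (iPS) cells made from fibroblasts by RNA-based reprogramming served as an outside check. The remaining library, from fibroblasts with a P number of 1, was used only to show levels outside pluripotent cells. Each ES line is 1 library, so line, origin and P number cannot be told apart, and results are given mainly as sizes of difference. No genotype, sex, treatment or culture condition of any group is given in the labels.

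ES cells are derived from the early embryo and iPS cells from reprogrammed somatic cells. Both hold a pluripotent state through a core set of transcription factors, among them the products of POU5F1, NANOG and SOX2, and respond to secreted WNT, NODAL and FGF signals that keep this state or move cells towards a lineage. Lines kept in culture can differ because of their genotype, the medium, the density and stage at harvest and the time in culture.

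No40 had 46523012 counts over genes, DSY127 34111715, No20 40825547 and the iPS library 5746449, so values in the iPS library are the least precise. A count of 3 corresponded to 0.0638, 0.0876, 0.0720 and 0.542 CPM in these libraries. CPM is the number of counts of a gene after scaling to a common library total, which was adjusted with TMM factors. Levels of different genes are not comparable on this scale, because CPM is not divided by gene length. The label of No40 as a pluripotent line was checked against core pluripotency genes. POU5F1, also called OCT4, stood at 1475 CPM in No40, 1820 in DSY127, 1187 in No20 and 1374 in the iPS library. NANOG stood at 484, 589.8, 548 and 575 CPM in the same order. SOX2 stood at 255, 171, 153 and 236 CPM. In all 4 libraries these genes were high, and No40 was neither the highest nor the lowest for POU5F1, the lowest for NANOG and the highest for SOX2.

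How far No40 differed from the other ES lines was first asked with a test across all genes. In edgeR's quasi-likelihood test, 0 of 16858 genes passed an adjusted p of 0.05 (0%), 944 had an unadjusted p below 0.05 (5.6% of the genes; 561 higher and 383 lower in No40), and the smallest adjusted p was 0.820. Against the iPS library 0 genes passed as well (0%), with 1276 below an unadjusted 0.05 and a smallest adjusted p of 0.409. The spread of each gene in this test comes from DSY127 and No20 alone, with 1 residual degree of freedom, and is drawn towards a trend over all genes. The p-values set the difference of No40 against that spread. No40 and the iPS library are taken to vary as much as DSY127 and No20 do. The count depended on the tool and filter. limma voom called 0 genes, edgeR without the low-count filter called 8 (4 higher and 4 lower) and DESeq2 called 56 (23 higher and 33 lower). All 8 genes called without the filter are among the 45 described next, and so are 23 of the 56 called by DESeq2. The 8 include MYH9, SOHLH2, NEFM, ARRDC4, FZD5 and SLC4A7, with 2 genes that have an identifier only. Against the iPS library, the unfiltered edgeR test called 180 genes and DESeq2 345.

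By size of difference, 45 genes set No40 apart: they lay at least 4-fold from the nearer of both other ES lines, in 1 direction, with at least 5 CPM in the higher arm. Of these, 25 were higher in No40 (0.148% of the genes tested) and 20 lower (0.119%). The same rule gave 98 genes for DSY127 (0.581%) and 217 for No20 (1.29%), so No40, the line with the highest P number, had the fewest. DSY127 was set apart mainly by genes that were higher (85 of 98) and No20 mainly by genes that were lower (160 of 217), whereas the genes of No40 were split more evenly. Without DSY127 in the rule 486 genes lay 4-fold from No20, and without No20 229 lay 4-fold from DSY127. A 2-fold rule gave 467 genes higher (2.77%) and 226 lower (1.34%), and in that setting DSY127 had the fewest, 448 against 693 for No40 and 896 for No20. No40 had the fewest in 15 of the 16 settings compared, the 2-fold rule being the exception.

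**Figure D1:**
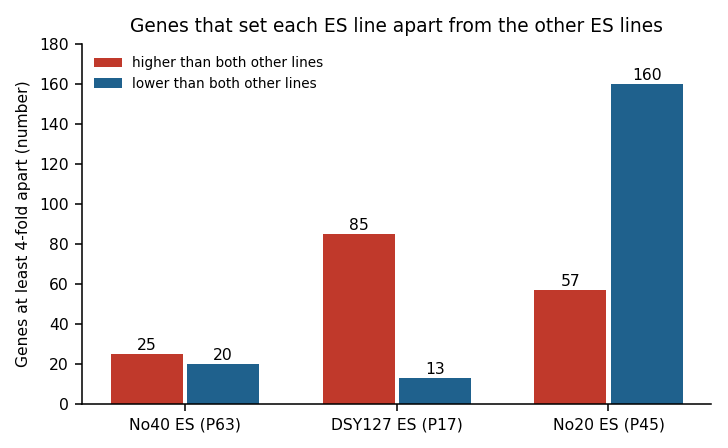
Number of genes (vertical axis) at least 4-fold higher (red) or lower (blue) in each ES library than in both other ES libraries, 1 library per line. No40 had 25 higher and 20 lower, DSY127 85 and 13, and No20 57 and 160.

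Libraries were also compared in pairs. No40 and DSY127 differed 4-fold for 229 genes, the fewest of the 6 pairs of pluripotent libraries, No40 and No20 for 486, DSY127 and No20 for 457, and No40 and the iPS library for 612. The median absolute difference over genes was smallest between DSY127 and No20 (0.36 on the log2 scale). It was 0.41 between No40 and DSY127 and 0.46 between No40 and No20. No40 and DSY127 were thus the pair with the fewest large differences, but not the pair with the smallest typical difference.

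Of the 45 genes, 31 have a symbol in the gene name table, 15 of them higher in No40 and 16 lower. Among the higher genes were a pair of related arrestin-domain genes, a WNT receptor and a bicarbonate transporter. ARRDC4, an arrestin-domain adaptor on chromosome 6 (9638326 to 9686975 in the coordinates of the files, for which the sources used here name no build), stood at 198 CPM in No40, 21.2 in DSY127, 6.65 in No20 and 159.8 in the iPS library. TXNIP, the related thioredoxin-interacting protein that restrains glucose uptake (chromosome 18, 1158081 to 1162234), stood at 501, 95.7, 30.7 and 218 CPM in the same order. For both genes No40 was highest, the iPS library was next, and No20 was lowest. Their gaps to the nearer ES line, DSY127, were 3.22 and 2.39 on the log2 scale, where 2 is 4-fold.

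FZD5, a Frizzled receptor for WNT proteins (chromosome 6, 123731350 to 123734718), stood at 366 CPM in No40, 74.5 in DSY127, 75.9 in No20 and 88.5 in the iPS library. The other 3 libraries lay close together, and No40 alone was high (fitted log2 fold change against both other ES lines 2.28 ± 0.27 SE, edgeR adjusted p = 0.820). SLC4A7, a sodium bicarbonate cotransporter that raises intracellular pH, stood at 1003, 233, 125 and 224 CPM (2.49 ± 0.43). SORCS2, a sortilin-family receptor, stood at 25.6, 3.07, 2.999 and 3.43 CPM. For all 3 genes No40 was the highest library, and the iPS library lay between the other ES lines or just above them.

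MSTN encodes myostatin, a secreted inhibitor of muscle growth. It had the widest gap of all named genes, 4.05 on the log2 scale: 345 counts in No40 (7.34 CPM, exact 95% Poisson interval 6.58 to 8.15), 4 in DSY127 (0.117 CPM, 0.0318 to 0.299) and 16 in No20 (0.384 CPM, 0.219 to 0.623). The iPS library had 2 counts. The intervals cover counting error only. MSTN stood at 154 CPM in the fibroblast library, where it is far above the level in No40. Of 23 fibroblast and mesenchymal genes, described later, 9 lay above both other ES lines in No40, COL3A1 and COL5A1 among them. Below both lay 9, DCN and TAGLN among them. The summed level was the highest of the ES lines (7250 CPM in No40, 6047 in DSY127 and 6337 in No20). It was 16280 CPM in the iPS library, which had 2 counts of MSTN. The median difference of the list from the mean of the other ES lines was -0.155, the opposite direction to the sum. Over all genes tested, 35.9% lay above both other ES lines and 33.8% below both. The part of fibroblast or mesenchymal cells in the MSTN value was not tested.

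Other named higher genes had lower CPM. GRIN1, a subunit of the NMDA glutamate receptor, stood at 17.8 CPM in No40, 3.36 in DSY127, 1.06 in No20 and 5.42 in the iPS library. BSN, the presynaptic scaffold bassoon, stood at 11.9, 1.84, 1.90 and 4.87 CPM. DNAI2, an intermediate chain of axonemal dynein, stood at 11.8, 2.16, 2.18 and 1.26 CPM. No40 was the highest library for each, and for DNAI2 the iPS library was the lowest. ATP8A2, a phospholipid flippase, stood at 34.4, 6.63, 4.56 and 21.1 CPM, and the zinc finger gene ZNF483 at 13.2, 2.92, 1.37 and 9.57 CPM. ELAPOR1, an endosome and lysosome protein linked to autophagy, stood at 16.8, 3.24, 2.09 and 5.78 CPM. The remaining named higher genes were SELENOI, which makes phosphatidylethanolamine, the methionine synthase MTR and the lysosomal trafficking regulator LYST, with gaps of 2.04, 2.003 and 2.003. MTR and LYST lie near each other on chromosome 19 (43444264 to 43598648 and 44405016 to 44645376).

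**Figure D2:**
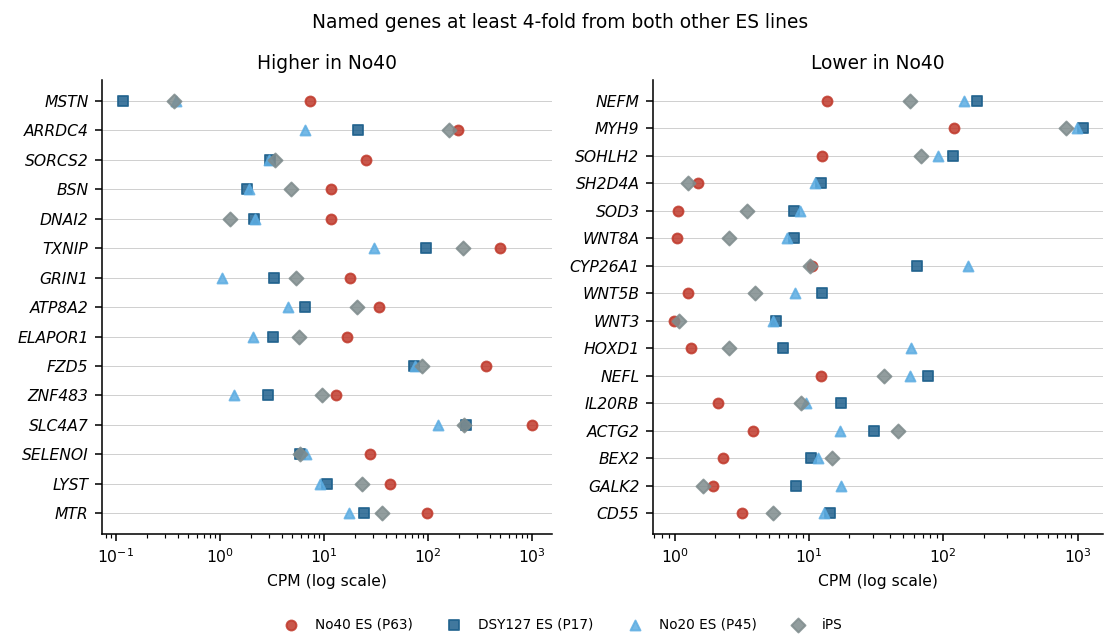
CPM (horizontal log axis) of the 31 named genes that lay at least 4-fold from both other ES lines, 1 point per library, with genes higher in No40 on the left and lower on the right, ordered by the gap to the nearer ES line. The iPS library (grey) lies beside No40 for some genes, such as CYP26A1 (10.1 and 10.5 CPM), and beside the other ES lines for others, such as FZD5.

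Lower genes included a non-muscle myosin, 2 neurofilament subunits, a germ cell factor, 3 WNT ligands and a retinoic acid hydroxylase. MYH9, the heavy chain of non-muscle myosin IIA (chromosome 1, 198642344 to 198756314), stood at 120.1 CPM in No40, 1093 in DSY127, 987 in No20 and 821 in the iPS library. No40 had 5650 counts of it, and the other 3 libraries lay within a narrow range (fitted log2 fold change -3.11 ± 0.31 SE, edgeR adjusted p = 0.820). NEFM and NEFL, the medium and light neurofilament chains, lie close together on chromosome 13 (13177782 to 13182649 and 13145153 to 13150774). NEFM stood at 13.7 CPM in No40, 179.5 in DSY127, 143 in No20 and 56.9 in the iPS library (-3.55 ± 0.39), and NEFL at 12.4, 76.5, 56.5 and 36.1 CPM (-2.42 ± 0.43). The libraries kept the same order for both chains, with No40 lowest and the iPS library next.

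SOHLH2, a helix-loop-helix factor of early germ cells, stood at 12.4 CPM in No40, 118 in DSY127, 90.9 in No20 and 67.7 in the iPS library. SOD3, the extracellular superoxide dismutase, stood at 1.06, 7.77, 8.57 and 3.43 CPM. IL20RB, a subunit of the interleukin 20 receptor, stood at 2.08, 17.4, 9.50 and 8.67 CPM. No40 was the lowest of the 4 libraries for these genes. SH2D4A, an SH2-domain adaptor, stood at 1.49, 12.3 and 11.1 CPM in the ES lines, and at 1.26 CPM in the iPS library, where 7 counts gave an interval of 0.508 to 2.60 CPM that holds the No40 value. ACTG2, enteric smooth muscle actin, stood at 3.83 CPM in No40, 30.4 in DSY127, 17.1 in No20 and 46.2 in the iPS library; actin genes are near-identical in their coding parts, and how shared reads were counted is not stated in the sources used here. The other named lower genes were BEX2, the sugar kinase GALK2 and the complement regulator CD55, with gaps of -2.14, -2.01 and -2.01. At the edge of the rule, LYST (2.003) and CD55 (-2.01) lay just inside, and the arginine deiminase gene PADI2 (1.99) and LEF1 (-1.96) just outside.

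The iPS library gives a look from outside the ES lines. Of the 25 genes higher in No40, 9 were also 4-fold above the iPS library (0.0534% of the genes tested), among them FZD5, SLC4A7, SORCS2, DNAI2 and SELENOI. Of the 20 lower genes, 9 were also 4-fold below it (0.0534%), among them MYH9, NEFM, SOHLH2, IL20RB, BEX2 and ACTG2. The iPS library lay nearer to No40 than to the mean of the other ES lines for 10 of the 25 higher and 8 of the 20 lower genes. ARRDC4, TXNIP, ATP8A2 and ZNF483 were among those higher genes, and CYP26A1, WNT3, WNT8A, HOXD1, SH2D4A, GALK2 and CD55 among the lower ones. For those genes the distance of No40 from the iPS library was smaller than that from the other ES lines. Further genes, such as GRIN1, ELAPOR1, MTR, WNT5B, SOD3 and NEFL, lay less than 4-fold from the iPS library in No40. For these the iPS library was nearer to the other ES lines.

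WNT pathway genes run from secreted ligands through Frizzled receptors and beta-catenin to TCF and LEF factors in the nucleus, and held 4 of the 45 genes. Of 22 tested, 1 was 4-fold higher and 3 were lower, against 0.148% and 0.119% of all genes tested. The list was chosen with earlier results of these data known, so nothing is read from this count. Among the ligands, WNT3 stood at 0.978 CPM in No40, 5.64 in DSY127, 5.42 in No20 and 1.08 in the iPS library. WNT8A stood at 1.04, 7.68, 6.89 and 2.53 CPM, and WNT5B, a ligand best known outside the beta-catenin branch, at 1.25, 12.5, 7.85 and 3.97 CPM. No40 was lowest for all 3 ligands, with 46 to 59 counts for each. For WNT3 the iPS value rests on 6 counts (interval 0.398 to 2.36 CPM) and includes the No40 level. WNT5A, by contrast, stood at 9.46, 8.53, 23.6 and 27.1 CPM, so No40 lay between the other ES lines.

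Among receptors only FZD5 passed the 4-fold rule, upwards, among the members measured. Among nuclear factors and targets, LEF1, a transcription factor that binds beta-catenin and is itself a WNT target, stood at 2.25, 8.94, 13.3 and 5.42 CPM. SP5, another target gene, stood at 0.553, 3.53, 3.38 and 1.44 CPM, below the level that the rule asks for in the other lines. TCF7 stood at 13.6, 10.2, 6.26 and 12.1 CPM, the other way. Of 22 WNT pathway genes tested, 5 lay above both other ES lines, 8 below both and 9 between them. The median difference from the mean of the other lines was -0.09 on the log2 scale, against 0.03 over all genes tested, 35.9% of which lay above both and 33.8% below both. The list as a whole therefore sat close to the average of all genes, with large gaps in single members. LEF1, SP5, WNT5A and TCF7 were chosen after their values were seen, as were the other genes named from here on that lie under 4-fold, apart from the pluripotency and control genes of the rule.

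Genes of energy and lipid metabolism showed smaller differences that ran the same way in many members. Of 24 genes of glycolysis and the hypoxia response, 15 lay above both other ES lines, 3 below both and 6 between them. Over all genes tested these shares were 35.9%, 33.8% and 30.3%. The median difference of the list was 0.37, and 0.27 after adjustment for gene length. SLC2A3, a high-affinity glucose transporter, stood at 804 CPM in No40, 325 in DSY127, 119.9 in No20 and 235 in the iPS library. SLC2A1, another glucose transporter, stood at 169 CPM in No40, 519 in DSY127, 494 in No20 and 133 in the iPS library, so the 2 transporters differed in opposite directions. ENO2 (171, 61.7, 75 and 46.4 CPM) and ALDOC (41.7, 15.01, 6.57 and 28.9 CPM), brain-type isoforms of glycolytic enzymes, were at least 2-fold above both other ES lines. BNIP3, a mitophagy receptor induced by hypoxia, was too (239.7 CPM, against 89.4, 70.4 and 124). Ubiquitous enzymes of the pathway were closer together or went the other way: GAPDH stood at 903, 1061, 1518 and 957 CPM and ALDOA at 859.7, 792, 695 and 614 CPM.

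Of 18 nuclear genes of oxidative phosphorylation, none lay above both other ES lines and 15 lay below both, with a median difference of -0.38. Over all genes tested, 35.9% lay above both and 33.8% below both. COX5B, a subunit of cytochrome c oxidase, stood at 35.4 CPM in No40, 62.6 in DSY127, 59.4 in No20 and 82.0 in the iPS library, and NDUFB5 of complex I at 66.6, 127, 197 and 126 CPM. None of the 18 reached a 2-fold gap. Short genes as a whole were lower in No40, as described with gene length, and after adjustment for length the median of the list was -0.29.

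Of 17 genes of cholesterol and fatty acid synthesis, 12 lay above both other ES lines and 3 below both. The median was 0.48, 0.35 after adjustment for gene length, and 1.13 against the iPS library. INSIG1, the feedback regulator of the SREBP factors, stood at 42.8 CPM in No40, 15.3 in DSY127, 16.8 in No20 and 12.5 in the iPS library, and ACACA, which makes malonyl-CoA, at 191, 65.3, 82.8 and 79.6 CPM. HMGCS1, an early enzyme of the cholesterol pathway, stood at 548, 196, 294 and 205 CPM. In each case No40 was above all 3 other libraries. Of 14 genes of the amino acid stress response, 1 lay above both other lines and 10 below both (median -0.58). Beside both lists, 35.9% of all genes tested lay above both other lines and 33.8% below both. DDIT3, the stress factor CHOP, stood at 1.68, 8.91, 5.04 and 4.69 CPM and its target TRIB3 at 2.38, 10.8, 6.05 and 3.25 CPM. None of the members of these 4 lists passed the edgeR test, which 0 of all 16858 genes tested did (0%).

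**Figure D3:**
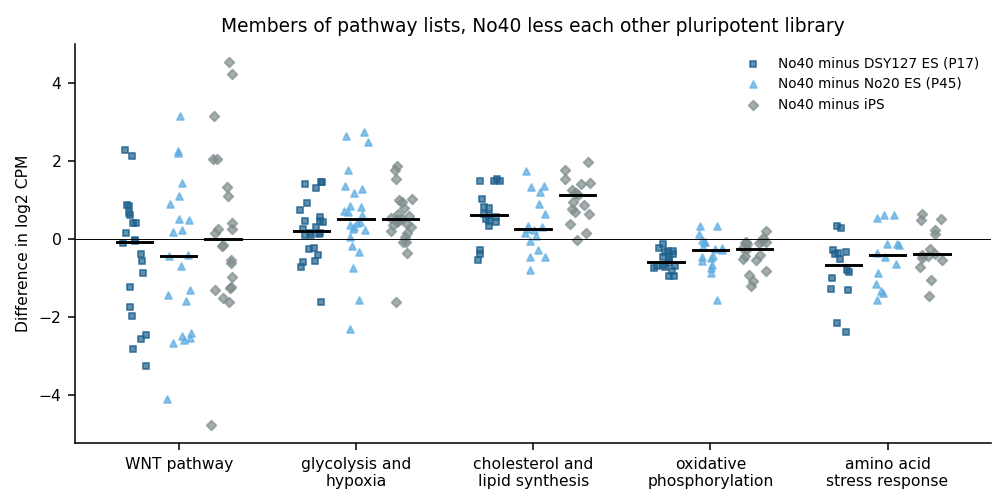
Difference in log2 CPM (vertical axis) of No40 less DSY127 (dark blue), No20 (light blue) and the iPS library (grey) for each tested member of 5 gene lists, with the median of each as a black bar. Members of oxidative phosphorylation lie mostly below 0, those of glycolysis and of cholesterol and lipid synthesis mostly above 0, and WNT pathway genes spread widely on both sides.

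An extra group was drawn up after the values were seen, around TXNIP and ARRDC4: arrestin-domain genes and the MLX factors that switch them on when glucose is high. KLF10, a further glucose-responsive gene, stood at 102 CPM in No40, 29.2 in DSY127, 33.0 in No20 and 38.6 in the iPS library. The regulators themselves lay close together, with MLXIP at 55.4, 46.1, 48.0 and 48.2 CPM and MLX at 41.5, 49.2, 46.2 and 44.6 CPM. ARRDC3, a paralog, stood at 109, 78.5, 81.2 and 136 CPM. Since the group was built around TXNIP and ARRDC4, no count over it is read as a result.

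Of 15 core pluripotency genes measured, 7 lay above both other ES lines in No40, 2 below both and 6 between them, against 35.9%, 33.8% and 30.3% of all genes tested. None was 4-fold apart, as were few genes in all (0.148% higher and 0.119% lower). TRIM71, a repressor of translation and let-7 target, was the only member at a 2-fold gap, at 431 CPM in No40, 139 in DSY127, 91.9 in No20 and 133 in the iPS library. LIN28A, which blocks let-7 maturation, stood at 585, 375, 333 and 362 CPM, also highest in No40. NODAL, the signal that maintains primed pluripotency, stood at 33.6, 64.8, 98.6 and 62.5 CPM, lowest in No40. KLF4 stood at 277, 184, 18.8 and 272 CPM and DNMT3B, a de novo DNA methyltransferase, at 3123, 2084, 746 and 1962 CPM. For these last 2 genes No20 was the library that stood low.

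Some genes that differ widely between DSY127 and No20 had intermediate levels in No40. DPPA5, a naive-state marker, stood at 46.0 CPM in No40, 198 in DSY127, 0.288 in No20 and 214 in the iPS library. NLRP7, a gene of the oocyte and early embryo, stood at 225, 808, 7.10 and 779 CPM and KHDC3L, another gene of oocytes, at 116, 389, 0.528 and 239 CPM. The germ cell helicase DDX4 stood at 1.15, 13.3, 0.0480 and 28.3 CPM. In all 4 cases No40 was below DSY127 and the iPS library and above No20. Of 17 germ cell genes 11 lay between the other ES lines, as did 6 of 9 naive-state genes and 5 of 7 oocyte and embryo NLRP genes, against 30.3% of all genes tested. Of the other germ cell genes 5 lay above both and 1 below both. TDRD1, a piRNA pathway gene, was the only member of these lists at a 2-fold gap (35.9, 12.9, 0.600 and 21.5 CPM). SOHLH2, described above, was not on the germ cell list. A wide gap between DSY127 and No20 leaves more room for No40 to fall between them, so nothing is read from these counts.

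Other genes often followed in long-term pluripotent cultures had no common direction. MYC stood at 354 CPM in No40, 236 in DSY127, 192 in No20 and 96.2 in the iPS library, highest in No40. BCL2L1, the anti-apoptotic BCL-XL gene, stood at 70.3, 206, 98.6 and 120 CPM, lowest in No40. Of 13 genes on chromosome regions that recur as gains in human pluripotent cultures, 5 lay above both other lines, 5 below both and 3 between them, close to the shares over all genes (35.9%, 33.8% and 30.3%), so nothing is read from the list. No member reached a 2-fold gap, which 2.77% of all genes did upwards and 1.34% downwards. The epithelial adhesion gene CDH1 stood at 855, 554, 222 and 619 CPM, and the intermediate filament gene VIM at 449, 470, 1301 and 598 CPM.

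Markers of other cell types were examined because a bulk library can hold more than 1 cell type, and fewer cells of a type and less RNA per cell cannot be told apart in it. Of 10 endoderm genes none lay above both other ES lines, 5 lay below both and 5 between them. Beside this and the following lists, 35.9% of all genes tested lay above both, 33.8% below both and 30.3% between them. GATA6, a regulator of early endoderm, stood at 17.1 CPM in No40, 40.3 in DSY127, 94.3 in No20 and 5.06 in the iPS library, and the apolipoprotein gene APOA1 at 6.19, 42.8, 17.7 and 13.2 CPM. Of 8 trophoblast and amnion genes none lay above both other lines, 2 lay below both and 6 between them (median difference 0.20, or -0.07 after adjustment for gene length). GATA2, one of the 2 below, stood at 3.49, 26.2, 7.44 and 1.81 CPM. Of 12 neural and neural crest genes 1 lay above both other lines, 6 below both and 5 between them (median -0.34), with TUBB3, a neuronal tubulin, at 222, 370.3, 261 and 194 CPM. Of 8 muscle genes 1 lay above both other lines, 4 below both and 3 between them (median -0.79). The muscle genes ACTC1 (5.78, 39.0, 13.2 and 7.58 CPM) and TNNT2 (1.70, 8.996, 5.35 and 2.89 CPM) were lower in No40 than in both other ES lines. Summed over its members, the endoderm list gave 142 CPM in No40, 171 in DSY127, 610.5 in No20 and 52.9 in the iPS library, so No40 was the lowest ES line but not the lowest library. The part of such cells in the lower WNT and HOXD1 values was not tested.

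The fibroblast and mesenchymal list gave sums of 7250 CPM in No40, 6047 in DSY127, 6337 in No20 and 16280 in the iPS library. Of its 23 members 9 lay above both other ES lines and 9 below both, close to the shares over all genes tested (35.9% and 33.8%). Its median difference from the mean of the other ES lines was -0.155, and -0.389 after adjustment for gene length. COL3A1, a fibrillar collagen, stood at 253, 23.0, 65.8 and 1799 CPM and COL5A1 at 197, 46.3, 62.8 and 39.5 CPM, both above the other ES lines. DCN stood at 9.82, 13.9, 11.6 and 7.04 CPM, PRRX1 at 32.5, 23.1, 34.7 and 416 CPM, and TAGLN, an actin-binding protein, at 224, 978, 695 and 84.5 CPM, so the list did not move as a block in No40. Beside MYH9, other genes of the contractile cytoskeleton went both ways in a list drawn up after the values were seen. TPM2, a tropomyosin, stood at 37.4, 105, 79.5 and 211 CPM, whereas the actin cross-linker FLNA stood at 800.4, 292, 374 and 332 CPM, and MYH10, the paralog of MYH9, at 657, 470.3, 528 and 353 CPM. Of 25 such genes 8 lay above both other lines, 14 below both and 3 between them. Over all genes tested these shares were 35.9%, 33.8% and 30.3%. Since the list was drawn up with the values known, no count over it is read as a result.

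Retinoic acid genes formed a second list of that kind. CYP26A1, which breaks down retinoic acid and is switched on by it (chromosome 12, 79921093 to 79924687), stood at 10.5 CPM in No40, 64.1 in DSY127, 154 in No20 and 10.1 in the iPS library. HOXD1 stood at 1.32, 6.37, 57.2 and 2.53 CPM, and CRABP1, a retinoic acid binding protein, at 14.1, 43.0, 70.2 and 13.7 CPM. All 3 had the same order over the ES lines, No40 lowest and No20 highest, and the iPS library lay close to No40. RARG, a receptor of the pathway, was alike in the ES lines, at 132, 131 and 129 CPM in the same order. Of 17 members 4 lay above both other lines, 7 below both and 6 between them (35.9%, 33.8% and 30.3% of all genes tested). No count over this list is read as a result either, since it too was drawn up with the values known. CRABP1 and RARG were chosen after their values were seen.

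Further lists held few large gaps. Of 10 genes on the X chromosome that are followed for dosage, 9 lay above both other ES lines, as did 35.9% of all genes tested. Their median difference was 0.70, and 0.42 after adjustment for gene length, although the median of all X chromosome genes was 0.04. USP9X, a deubiquitinase, stood at 742 CPM in No40, 228 in DSY127, 303 in No20 and 505 in the iPS library, and HUWE1, a ubiquitin ligase, at 853, 542, 487 and 685 CPM. Among imprinted genes, PEG10, derived from a retrotransposon, stood at 82.1, 21.9, 35.4 and 18.1 CPM. KDM6B, a histone H3 lysine demethylase, stood at 106, 41.4, 31.8 and 66.3 CPM and the activin receptor gene ACVR2B at 30.0, 11.1, 9.62 and 13.0 CPM, both highest in No40. ETV4, a target of FGF and ERK signalling, stood at 40.9, 131, 150.0 and 74.2 CPM and TAP1, a peptide transporter of antigen presentation, at 8.95, 27.5, 19.5 and 25.6 CPM, both lowest in No40.

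Gene length moved with the differences of No40. The genes with a mean of at least 5 CPM in the ES lines were split into 5 equal groups by the length of the gene model. In the group of shortest genes (57 to 1374 bases) the median difference of No40 was -0.27 from DSY127, -0.32 from No20 and -0.17 from the iPS library. In the group of longest genes (4166 to 33303 bases) it was 0.33, 0.29 and 0.36 (log2 scale). DSY127 less No20 showed no such trend, with medians from -0.07 to 0.03 over the groups. The pattern was noticed in the data and its source was not tested. The 25 higher genes had a median length of 2827 bases and the 20 lower genes of 1804 bases, against 2114 bases over all genes tested. When each library's trend with length was removed, 45 genes again lay 4-fold apart (24 higher and 21 lower), of which 38 were the same genes. SLC4A7 (gap 1.65 after adjustment), MTR (1.76), LYST (1.34), GALK2 (-1.79) and BEX2 (-1.91) were among those that no longer reached 4-fold, whereas MYH9 (-3.38), NEFM (-3.45), ARRDC4 (3.22) and FZD5 (2.15) did.

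**Figure D4:**
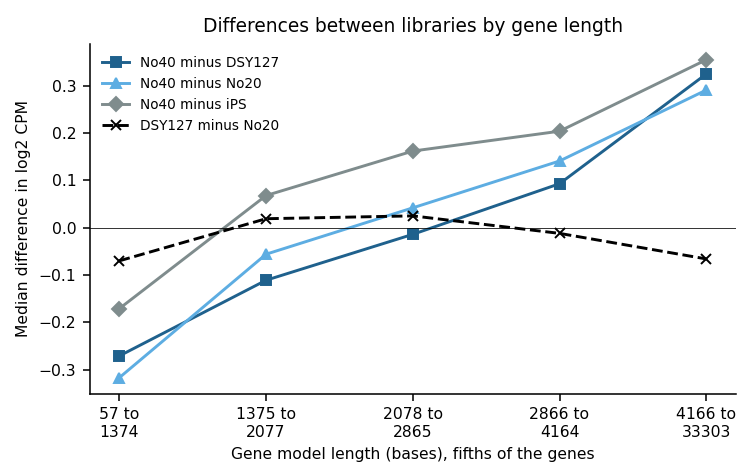
Median difference in log2 CPM (vertical axis) between pairs of libraries in 5 groups of genes by gene model length (horizontal axis, bases). The 3 lines for No40 climb from -0.27, -0.32 and -0.17 in the shortest genes to 0.33, 0.29 and 0.36 in the longest, and the dashed line for DSY127 less No20 stays between -0.07 and 0.03.

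The position of genes along chromosomes was then examined over groups of 20 consecutive genes with a mean of at least 5 CPM, 564 groups in all. A group was counted as shifted where its median in No40 lay at least 0.3 (log2) from that of each of the other 3 pluripotent libraries in 1 direction. No40 had 9 groups shifted upwards and 2 downwards. Of the 9, 5 were adjacent and covered the end of chromosome 14, from 81035126 to 108752403, where the last gene of the chromosome in the table ends at 108772518. The median of the 96 genes there was 0.56 above DSY127, 0.60 above No20 and 0.67 above the iPS library, or 1.48, 1.52 and 1.59 times their levels. In the other 300 genes of the chromosome these medians were -0.03, 0.06 and 0.06. DSY127 less No20 was -0.06 in the same stretch, so those lines did not differ there in the way No40 did. The stretch and the rule for it were settled after the data had been looked at, so no test is given.

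Within the stretch, 70 of the 96 genes (72.9%) were above all 3 other libraries in No40, against 29.5% of the 11255 genes with that mean and 29% of the other genes of chromosome 14. Below all 3 were 5 genes (5.21%), against 23.6% of all genes. The stretch was picked by these same differences, so these shares and those that follow result in part from that choice. Differences were modest and spread over many genes: 14 were 2-fold higher than both other ES lines (14.6%, against 2.77% of all genes tested). In the other direction 1 was 2-fold lower (1.04%, against 1.34%), and only SELENOI was 4-fold apart. SELENOI stood at 27.9 CPM in No40, 5.99 in DSY127, 6.74 in No20 and 5.96 in the iPS library. DRC1, a part of the dynein regulatory complex of cilia, stood at 200.4, 35.8, 58.56 and 55.6 CPM, and ASXL2, a chromatin regulator, at 85.4, 24.5, 28.3 and 38.1 CPM. CAD, which starts pyrimidine synthesis, stood at 395, 175, 126 and 141 CPM, ADAM17, a protease that sheds membrane proteins, at 299.5, 124, 125 and 113 CPM, and NBAS, a trafficking gene, at 101, 36.0, 33.8 and 54.3 CPM.

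Other genes of the stretch had smaller gaps. RRM2, a subunit of ribonucleotide reductase, stood at 454 CPM in No40, 286 in DSY127, 232 in No20 and 339 in the iPS library, and DNMT3A, a de novo DNA methyltransferase, at 357, 254, 188 and 179 CPM. ODC1, the first enzyme of polyamine synthesis, stood at 622, 472, 561 and 389 CPM. ADI1, an enzyme of methionine salvage, was the 1 gene that was 2-fold lower (7.27, 18.7, 19.7 and 8.12 CPM). The medians after adjustment for gene length were 0.57, 0.51 and 0.56, close to those without it. The group of 20 genes just before the stretch, from 76312819 to 81016587, had medians of 0.29, 0.37 and 0.50, so the lower edge is not sharp at this resolution. DNA copy number was not measured in the series, and its part in the shift was not tested.

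**Figure D5:**
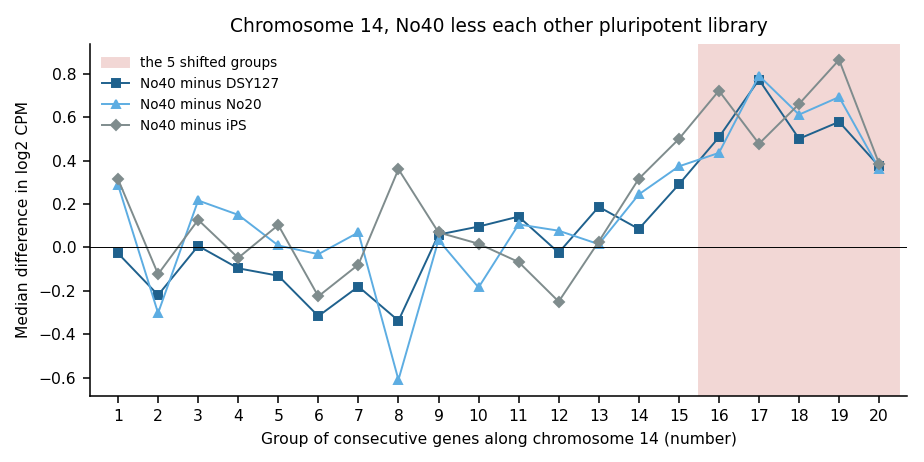
Median difference in log2 CPM (vertical axis) of No40 less DSY127, No20 and the iPS library in consecutive groups of 20 genes along chromosome 14 (horizontal axis, group number; the last group holds 16 genes). In the 5 shaded groups at the end of the chromosome all 3 lines lie above 0.3. The group before them, number 15, also lies above 0 in all 3 (0.29, 0.37 and 0.50), and group 8 has -0.34, -0.61 and 0.36.

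Elsewhere the shifted groups of No40 stood alone. The other 4 upward groups lay on chromosomes 5, 7, 22 and X, and the 2 downward ones on chromosomes 2 and X. By the same rule DSY127 had 4 upward and 1 downward group with no 2 adjacent, the iPS library 15 downward and none upward with no 2 adjacent, and No20 27 upward and 4 downward, with a run of 9 on chromosome 15. These counts depended on the adjustment for gene length. With it No40 had 8 upward and 1 downward group, the same 5 adjacent ones on chromosome 14 among them. Of its 4 lone upward groups the one on chromosome 22 remained, groups on chromosomes 1 and 7 were added, and the downward group was another one, on chromosome 11. The iPS library then had 6 upward and 5 downward groups, DSY127 2 and 1, and No20 26 and 7, with a longest run of 5 on chromosome 15. Over whole chromosomes, and less the median of all genes, the median difference of No40 from the mean of the other ES lines was 0.14 for chromosome 14 and 0.12 for chromosome 19. It was -0.20 for chromosome 15 and -0.13 for chromosome 9. For chromosomes 15 and 9 this came from the difference to No20, -0.32 and -0.31, whereas the difference to DSY127 was -0.02 and 0.02.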

How the data were processed

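RNA sequencing libraries were made from total RNA (Qiagen RNeasy Mini kit, standard Illumina protocols), per the labels. The values the authors deposited are raw read counts for each gene, beside a gene model length column in another unit (bases). The submitters' processing notes name STAR 2.5.3a, featureCounts 1.5.2 and Trim Galore 0.4.0. Settings for build, strand and overlap are not given in the sources used, so overlapping, antisense and near-identical genes are uncertain.

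Of 30811 identifiers 12660 matched a symbol. XIST did not match and is not analysed here. With R 4.3.3 and edgeR 4.0.16, libraries were scaled by TMM over the 4 pluripotent libraries and genes kept with filterByExpr on the ES libraries. The fit (glmQLFit, glmQLFTest) had No40, the other ES lines and iPS as levels, with Benjamini-Hochberg adjustment. Log2 CPM used a prior count of 2. Levels in the fibroblast library use TMM over all 5 libraries. DESeq2 1.42.0 and limma 3.58.1 (voom), other scalings, filters, folds and prior counts were alternatives. Length trends were removed with lowess (span 0.3). Steps were tested on simulated data.

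Members and lists were chosen with earlier results of these data known. Of 38 gene lists (34 and 4 drawn up later) 504 distinct genes were tested. Genes were named by rule: the 12 named genes with the widest 4-fold gaps in each direction, up to 4 such members per list, and POU5F1, NANOG, SOX2, LIN28A, KLF4, MYC, DNMT3B, XIST, BCL2L1, CDH1 and VIM. Some genes the rule gives are not reported here.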

Additional observations from a re-analysis of the deposited data

How the results depend on the processing

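The 45 genes at 4-fold became 693 at 2-fold, 7 at 8-fold, 115 at a minimum of 1 CPM and 20 at a minimum of 20 CPM, and from 229 to 486 with 1 other ES line left out, since the rule then asks for a gap to a single line. Other scalings, filters and prior counts gave 40 to 49. No gene passed against the other ES lines except 8 without the low-count filter and 56 with DESeq2, and against the iPS library 180 and 345; the cause was not tested. Leaving out DSY127 or No20, with the iPS library pooled with the remaining line, also gave 0. The median of distal chromosome 14 against the mean of the other ES lines was 0.59, 0.54 with RLE factors and 0.56 after the length adjustment, and from 0.56 to 0.60 with 1 line left out. Of the named genes 4-fold apart, 24 were recomputed and none changed direction. Genes picked for a gap of that size in 1 direction could hardly turn, so little is read from this. Of the 240 recomputed differences of these genes 220 moved by less than the spread between the other ES lines and 20 by more. Leaving out 1 line always moves a difference by less than that spread. Part of the 220 was therefore fixed in advance, and little is read from that count either. POU5F1, near 0 at 0.01, turned sign with RLE factors (-0.04), with TMM over the ES libraries alone (-0.01) and without No20 (-0.30). List medians moved by more in 32 of 304 cases. The medians of the Polycomb and chromatin list (0.00 to -0.26) and the trophoblast and amnion list (0.20 to -0.07) turned sign with the length adjustment. The length adjustment and all alternatives for chromosome 14 and the lists were chosen after seeing the data. With 3 counts at 0.542 CPM, the iPS library cannot resolve low genes such as WNT3 or SH2D4A. Each line is 1 library, and no batch is given in the labels. No paired analysis was possible because the labels give no replicate numbers shared between groups.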
